A study of Mus musculus with 8 samples.

Results

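The 10 genes described here are markers of the endothelium, the cell layer that lines blood vessels, and of the endocardium, the endothelial layer inside the heart chambers. They were taken by symbol from a table of 52778 features: Pecam1, Cdh5, Kdr, Flt1, Tek, Tie1, Emcn and Aplnr as pan-endothelial genes, and Nfatc1 and Npr3 as endocardial genes. The name pan-endothelial is a group label here, since Emcn and Aplnr mark parts of the endothelium, as described below. The tissue was the ventricular part of mouse hearts taken on embryonic day 11.5, in 4 control and 4 mutant libraries that the design text calls biological replicates. The mutants were homozygous for a frameshift allele of Atf4, made with CRISPR/Cas9 by removing 7 bases from exon 3, and are labelled a global knockout, so endothelium, myocardium and every other tissue carried the allele. The controls are labelled C57BL/6 wild type, and the genotype field of the mutants reads the same, so the groups rest on the sample titles. No sample was treated, all 8 carry batch label 1, and the labels do not say how many hearts entered a library. The labels' extraction protocol names cultured cortical neurons and ribosomal RNA depletion, while the design text names dissected heart and a stranded mRNA kit.

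Ventricular endocardium and coronary endothelium signal to the myocardium around them. VEGF from the myocardium acts on the receptors encoded by Kdr and Flt1. Angiopoietins act on the receptor encoded by Tek, whose signal the receptor TIE1 modulates. NFATc1, a transcription factor that calcineurin activates, marks the endocardium and is needed for valve formation. NPR3 is the clearance receptor that removes natriuretic peptides made by cardiomyocytes. In a bulk sample, fewer endothelial cells and less RNA per endothelial cell cannot be told apart.

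Expression is given as TPM, transcript abundance scaled to a fixed total per library, a unit corrected for transcript length, so levels of different genes can be set side by side. The listed features summed to between 923473 and 949762 TPM per library and the read depth is unknown. All 12 cardiomyocyte markers were expressed, with summed levels of 43180 to 44550 TPM in the controls and 42251 to 44606 TPM in the mutants. Of 10 neuronal markers, 9 stayed below 1 TPM in every library and Neurod6 was listed at 0. The remaining neuronal marker, Tubb3, held 7.06 to 11.8 TPM over the 8 libraries. The targeted transcript, Atf4, was higher in the mutants, at 166 ± 15.1 TPM against 112 ± 8.07 TPM (SD, n = 4 each, limma adjusted p of 0.0430), and this mRNA level is no measure of ATF4 protein. Atf4 was higher in all 18 alternative fits, at log2 fold changes of 0.51 to 0.66, but passed in only 5 of them (limma adjusted p of 0.0297 to 0.354).

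All 10 genes were expressed above the filter of 1 TPM in at least 4 libraries. None passed an adjusted p of 0.05 in the comparison of mutants with controls, a count of 0 beside 6 of the 15545 genes tested, or 0.0386% (limma on log2(TPM + 1), two-sided, Benjamini-Hochberg). At an unadjusted p below 0.05 there was 1 of the 10, Aplnr, against 6.1% of all genes. Aplnr was also the 1 member whose groups did not overlap, against 3.68% of all genes in either direction and 2.05% lower in the mutants. Over the 10 members the log2 fold changes had their median at -0.012, against -0.0033 over all genes tested, with 6 of the 10 negative against 51.8% of all genes. These signs changed without 2 libraries described further on, control replicate 2 and mutant replicate 4. Then 2 of the 10 were negative and the median was 0.042, with 47.7% of all genes negative. Those libraries, chosen after seeing the data, were the highest control and the lowest mutant in 7 of the 10 genes each. Leaving them out raises such differences by construction, so the change is no test of the signs. A p above the threshold does not show equal levels, and the intervals given for each gene show which differences the 8 libraries allow. The 7 pan-endothelial genes other than Aplnr lay between -0.079 and 0.025, while Nfatc1 and Npr3 lay at 0.11 and 0.093.

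**Figure D1:**
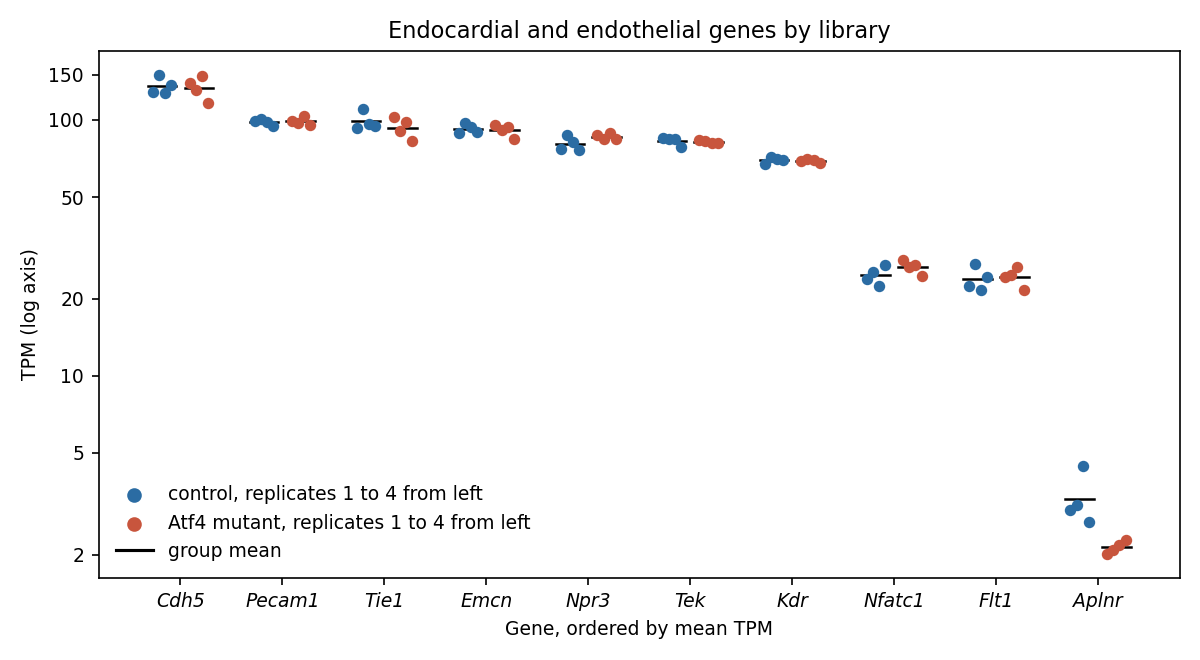
TPM of each gene (log axis) in each of the 8 libraries, with controls in blue, mutants in red, replicates 1 to 4 from left to right within a group, and bars at group means. Cdh5 lies highest in every library and Aplnr lowest, and Aplnr is the gene whose mutant points, 2.02 to 2.28 TPM, all lie below its control points, 2.69 to 4.45 TPM.

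The members lay at 5 separate levels. Cdh5 was the most abundant, at a mean of 135 TPM over the 8 libraries, and its lowest value of 116 TPM lay above the highest value of any other member. Pecam1, Tie1, Emcn, Npr3 and Tek followed at means of 98.5, 96.1, 91.9, 83.4 and 82.7 TPM, and the ranges of each neighbouring pair in this order overlapped. Kdr, at 69.6 TPM, lay below Tek in 8 of 8 libraries with no overlap. Nfatc1 and Flt1, at 25.7 and 24.2 TPM, overlapped with each other, and Nfatc1 was the higher in 7 of 8 libraries. Aplnr was far lower, at 2.73 TPM. Npr3 stood at 3.28 ± 0.357 times the TPM of Nfatc1 in the controls and 3.23 ± 0.160 times in the mutants (SD, n = 4 each).

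Pecam1 and Cdh5 encode adhesion molecules of endothelial junctions, PECAM-1 and VE-cadherin. Pecam1 (chromosome 11, bases 106654213 to 106715281, minus strand, GRCm38) measured 99.2, 101, 97.8 and 94.7 TPM in control replicates 1 to 4, and 98.7, 97.1, 104 and 95.8 TPM in mutant replicates 1 to 4. The groups overlapped, and the log2 fold change was 0.010 with a 95% interval of -0.072 to 0.092 (limma adjusted p of 0.987). Cdh5 (chromosome 8, bases 104101613 to 104144504, plus strand) measured 128, 150, 127 and 137 TPM in the controls and 139, 131, 149 and 116 TPM in the mutants. Control replicate 2 and mutant replicate 3 were high and mutant replicate 4 was low, so the spread within each group exceeded the difference between them. For Cdh5 the difference was -0.021 on the log2 scale, with a wider interval of -0.20 to 0.16. The difference was 0.030 without control replicate 2, 0.044 without mutant replicate 4 and -0.073 without mutant replicate 3. Leaving out the highest control, replicate 2, or the lowest mutant, replicate 4, raises the difference by construction, so the change of sign is no test.

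Kdr and Flt1 encode the VEGF receptors VEGFR-2, which carries most of the signal, and VEGFR-1, which binds VEGF tightly and has a soluble form that acts as a decoy. Kdr (chromosome 5, bases 75932827 to 75979072, minus strand) measured 67.2, 71.7, 70.2 and 70.0 TPM in the controls and 69.0, 70.6, 69.7 and 68.1 TPM in the mutants. These 8 values differed by at most 1.07 times, and the residual SD of Kdr, 0.031 on the log2 scale, was lower than that of all but 1.49% of the genes tested. Kdr differed by -0.0085 on the log2 scale (interval -0.081 to 0.064, limma adjusted p of 0.987). Flt1 (chromosome 5, bases 147561604 to 147726438, minus strand) measured 22.4, 27.4, 21.6 and 24.4 TPM in the controls and 24.4, 24.8, 26.7 and 21.6 TPM in the mutants. As for Cdh5, control replicate 2 was the highest control and mutant replicate 4 the lowest mutant. Flt1 differed by 0.025 (interval -0.16 to 0.21, limma adjusted p of 0.984), and the deposited value does not separate its soluble form from the full-length receptor.

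Tek and Tie1 encode the TIE receptors. Tek (chromosome 4, bases 94739086 to 94874976, plus strand) measured 84.9, 84.3, 84.5 and 78.7 TPM in the controls and 83.7, 82.7, 81.0 and 81.5 TPM in the mutants. Control replicate 4 stood below the other controls and also below every mutant. Tek differed by -0.015 on the log2 scale (interval -0.092 to 0.063, limma adjusted p of 0.975). Tie1 (chromosome 4, bases 118471191 to 118489849, minus strand) measured 93.4, 110, 96.3 and 94.9 TPM in the controls and 103, 90.6, 98.0 and 82.5 TPM in the mutants. It again had control replicate 2 at the top and mutant replicate 4 at the bottom of the 8. Its log2 fold change was -0.079 (interval -0.25 to 0.087, limma adjusted p of 0.928).

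Emcn encodes endomucin, a sialomucin on the surface of venous, capillary and endocardial endothelium. Emcn (chromosome 3, bases 137341062 to 137431069, plus strand) measured 88.7, 97.4, 93.6 and 90.0 TPM in the controls and 95.6, 91.0, 94.3 and 84.2 TPM in the mutants. The groups overlapped over most of their range. Emcn differed by -0.018 on the log2 scale (interval -0.13 to 0.089, limma adjusted p of 0.979), and by 0.0067 without control replicate 2 and 0.019 without mutant replicate 4. For Emcn too these were the highest control and the lowest mutant, so leaving either out raises the difference by construction.

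Promoter sequence is shown for members that hold letters of a known endothelial factor's site. RefSeq promoters (GRCm38.p6) were matched for 6 of the 10 genes. In the 250 bases before each start, both strands were searched for AGGAAG, a form of the site bound by ETS factors such as ERG and FLI1, for AGATAA, a site of the GATA family, and for AACAAT, a site of SOX factors. AGGAAG was found before Flt1, Emcn and Tie1, and not before Kdr, Tek or Npr3, so 3 of 6 held it against 29.5% of 32851 promoters. AACAAT was found before Emcn and Tek, against 9.42% of promoters, and AGATAA before none of the 6, against 9.99%. These are matches of letters in a short window and do not show a bound site. The stretches below hold every AGGAAG match and show where it lies: 30 bases around each of the Flt1 matches, and longer stretches of Emcn and Tie1. Each is written 5′ to 3′ on the strand of the gene, with the matches in capitals. CTTCCT is AGGAAG on the other strand, and the capitals near the end of the Emcn stretch are its SOX match.
Flt1, chr5:147726123-147726152, minus strand: cgcccctccgggAGGAAGaagagggtaggt
Flt1, chr5:147726047-147726076, minus strand: aggtgccggggtAGGAAGtgggctggggaa
Emcn, chr3:137340888-137341047, plus strand: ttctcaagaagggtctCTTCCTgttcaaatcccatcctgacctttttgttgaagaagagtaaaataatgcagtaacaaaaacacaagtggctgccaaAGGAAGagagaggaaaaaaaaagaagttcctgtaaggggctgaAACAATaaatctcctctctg
Tie1, chr4:118490062-118490099, minus strand: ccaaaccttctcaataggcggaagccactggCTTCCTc
The Flt1 matches lie 129 and 53 bases before the RefSeq start, that of Tie1 lies 219 bases before it, and those of Emcn lie 174 and 93 bases before it. For Flt1 the start used in the promoter table lies inside the span of the gene, which RefSeq and the deposited table both carry farther upstream, so these stretches lie within that span.

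Aplnr encodes the apelin receptor, which marks the sinus venosus, the veins and the early coronary vessels that sprout from them. Aplnr (chromosome 2, bases 85136360 to 85139923, plus strand) measured 3.00, 3.12, 4.45 and 2.69 TPM in the controls and 2.02, 2.09, 2.18 and 2.28 TPM in the mutants. Every mutant value lay below every control value, by at least 0.409 TPM, and the mutant mean of 2.14 ± 0.112 TPM was 35.4% below the control mean of 3.32 ± 0.778 TPM (SD, n = 4 each). The log2 fold change was -0.44 (standard error 0.124, interval -0.72 to -0.16). The unadjusted p was 0.00563 and the limma adjusted p 0.721, so the difference did not pass over all genes tested. The 17 alternative fits that tested Aplnr gave -0.58 to -0.32, and their adjusted p ran from 0.551 to 0.947. Control replicate 3 was the highest, and without it the value was -0.32. Macrophage markers also lay lower in the mutants, with a median log2 fold change of -0.60 over 7 tested genes. None of the 7 passed, and the median over all genes tested was -0.0033. The value of -0.60 is that of Cx3cr1, which passed the filter of 1 TPM through the controls alone. Summed levels of the markers were 54.3 to 65.1 TPM in the mutants against 65.9 to 88.0 TPM in the controls. The part of macrophages in the difference of Aplnr was not tested.

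The apelin receptor ligands were measured as well. Apela, which encodes the ligand ELABELA, held 31.6, 22.0, 28.2 and 28.3 TPM in the controls and 25.9, 26.9, 25.7 and 27.6 TPM in the mutants. The groups overlapped, and the log2 fold change of Apela was -0.042 (limma adjusted p of 0.973). Apln, which encodes apelin, reached at most 2.16 TPM and was too low to be tested. Nr2f2, a transcription factor of venous identity, had a log2 fold change of -0.050 (limma adjusted p of 0.942).

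**Figure D2:**
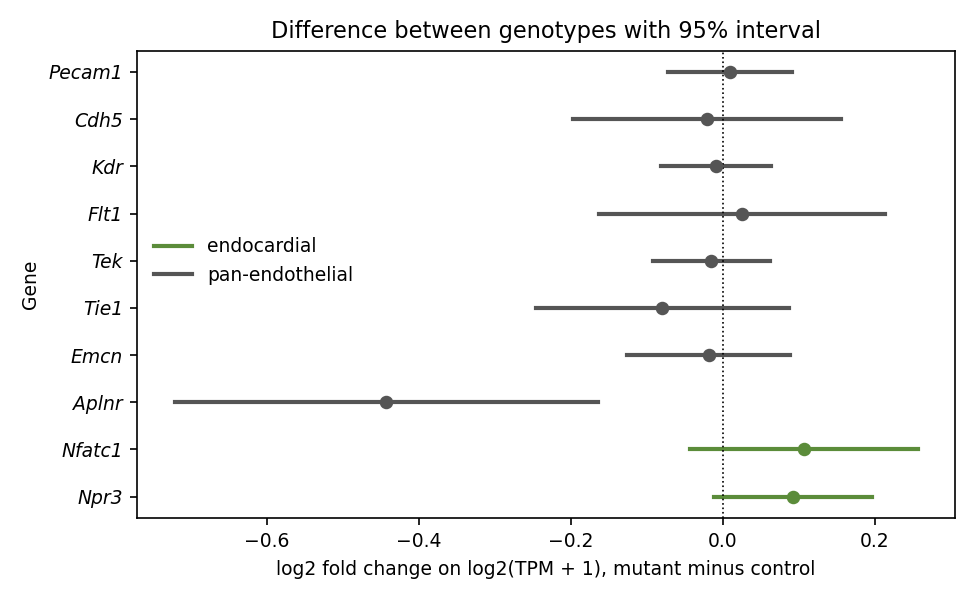
Log2 fold change of each gene, mutant minus control on the log2(TPM + 1) scale, with its 95% interval from the limma fit, endocardial genes in green. The interval of Aplnr, -0.72 to -0.16, is the one that does not cross 0, and it is not adjusted for the number of genes tested.

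Nfatc1 and Npr3 are the endocardial pair. Nfatc1 (chromosome 18, bases 80606205 to 80713071, minus strand) measured 24.0, 25.4, 22.5 and 27.2 TPM in the controls and 28.4, 26.7, 27.2 and 24.5 TPM in the mutants. Of the mutants, 3 lay above 3 of the 4 controls, and control replicate 4 and mutant replicate 4 crossed over. The log2 fold change of Nfatc1 was 0.11 (standard error 0.067, interval -0.043 to 0.26, limma adjusted p of 0.865). Npr3 (chromosome 15, bases 11839896 to 11907837, minus strand) measured 77.1, 87.2, 81.9 and 76.7 TPM in the controls and 87.0, 84.0, 89.0 and 84.3 TPM in the mutants. All 4 mutants lay above 3 of the controls, and control replicate 2 lay among them. The log2 fold change of Npr3 was 0.093 (standard error 0.046, interval -0.011 to 0.20), with an unadjusted p of 0.0735 and a limma adjusted p of 0.841. An opposite-strand feature that overlaps Npr3, Gm5144, averaged 1.00 TPM, and how overlaps were counted is not given in the sources used here. Features overlapping the other members averaged at most 0.157 TPM.

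Both endocardial genes kept a positive difference in all 18 alternative fits, at 0.063 to 0.16 for Nfatc1 and 0.069 to 0.14 for Npr3, and neither passed the adjusted threshold in any. The contrast between the endocardial pair and the pan-endothelial genes was taken per library as the mean log2(TPM + 1) of Nfatc1 and Npr3 minus that of the other 8 members. It was -0.26, -0.26, -0.33 and -0.17 in control replicates 1 to 4 and -0.064, -0.095, -0.11 and -0.076 in mutant replicates 1 to 4. Every mutant lay above every control, with group means of -0.25 ± 0.062 and -0.086 ± 0.020 (SD, n = 4 each) and a difference of 0.17. The low-level gene Aplnr carried part of it. Without Aplnr the controls lay between -0.80 and -0.72 and the mutants between -0.69 and -0.63, still apart, and the difference was 0.11. No test is given for this score, since its members were chosen with results of these data known.

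The contrast of 0.11 without Aplnr lay mostly in the endocardial mean, which was 0.10 higher in the mutants. With Aplnr included, the mean of the 8 pan-endothelial genes differed by -0.069. It went from 5.77 ± 0.061 for controls to 5.70 ± 0.062 for mutants, with overlapping ranges. The endocardial mean was 5.52 ± 0.064 in the controls and 5.62 ± 0.057 in the mutants, and the ranges overlapped. The pan-endothelial mean without Aplnr was 6.30 ± 0.066 and 6.28 ± 0.075 (SD, n = 4 each), and its difference of -0.015 became 0.017 without control replicate 2. That library had the highest such mean of the controls, so leaving it out raises the difference by construction. In summed TPM, the endocardial pair held 101 to 113 in the controls and 109 to 116 in the mutants, and the 8 pan-endothelial genes held 587 to 645 and 552 to 624.

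**Figure D3:**
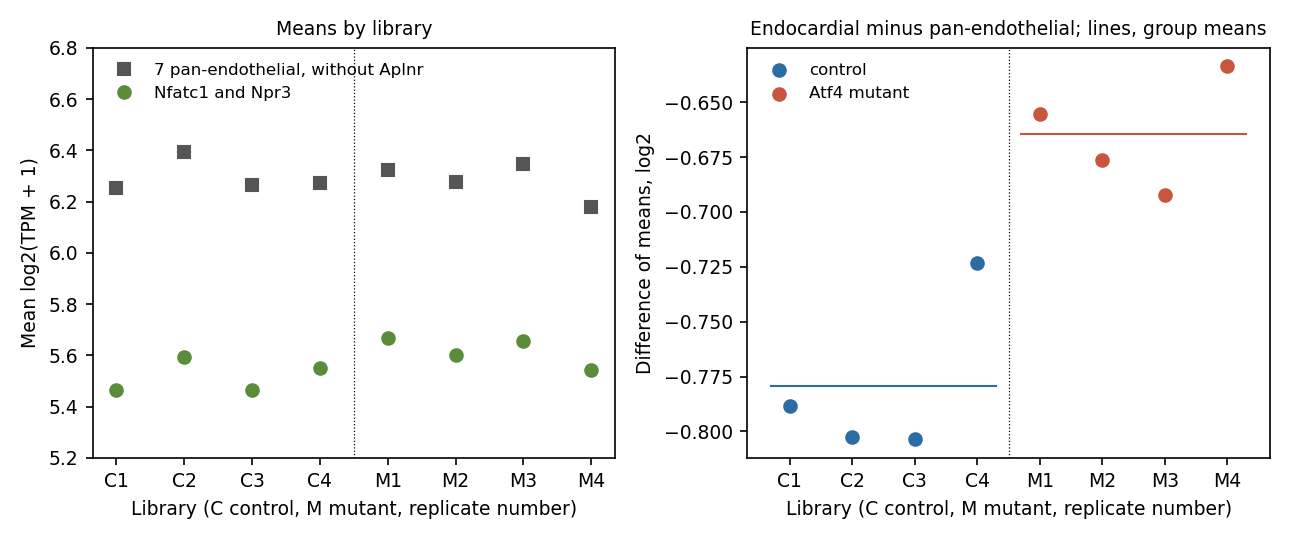
Left, mean log2(TPM + 1) in each library of Nfatc1 and Npr3 (green circles) and of the 7 pan-endothelial genes other than Aplnr (grey squares). Right, the endocardial mean minus the pan-endothelial mean, which lies between -0.80 and -0.72 in the controls (blue) and between -0.69 and -0.63 in the mutants (red), with lines at group means.

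In single libraries many members deviated together. Control replicate 2 was the highest control in 7 of the 10 genes and lay above the mean of the other controls in 9, by a median of 5.59%. Flt1 was 20.4% above that mean, Tie1 16.1%, Cdh5 15.1% and Npr3 11.0%, while Kdr and Pecam1 were only 3.75% and 3.89% above it, and Aplnr lay below. Over all genes tested, control replicate 2 was the highest control in 22.4% and lay above the mean of the others in 49.8%. Its summed megakaryocyte and platelet markers, 62.2 TPM over 8 genes, were also the highest of the 8 libraries, against 24.0 to 39.9 TPM in the other controls and 32.4 to 44.6 TPM in the mutants. The summed erythroid markers of control replicate 2, 5999 TPM, and its summed macrophage markers, 84.3 TPM, lay within the ranges of the other controls. The part of blood cells in the values of this library was not tested.

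Mutant replicate 4 was the lowest mutant in 7 of the 10 genes and lay below the mean of the other mutants in 9, as did 58.3% of all genes tested. Relative to that mean, Cdh5 stood at -16.7%, Tie1 at -15.0%, Flt1 at -14.7% and Emcn at -10.0%, while Kdr stood at -2.38% and Tek at -1.12%. This library was also the lowest mutant in 35.0% of all genes tested. Mutant replicate 3 lay above the mean of the other mutants in 9 of 10 genes, by a median of 4.49%, against 53.2% of all genes. Cdh5, Flt1 and Tie1 thus deviated by at least 14.7% in control replicate 2 and in mutant replicate 4, and Kdr and Tek by at most 3.75%. With control replicate 2 and mutant replicate 4 both left out, none of the 10 members passed, a count of 0, and the contrast between endocardial and pan-endothelial genes was 0.16. Flt1 then had a log2 fold change of 0.14 (limma adjusted p of 0.947), against 0.025 with all libraries, and Cdh5 one of 0.095. For both genes these libraries were the highest control and the lowest mutant, so leaving them out raises the difference by construction.

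**Figure D4:**
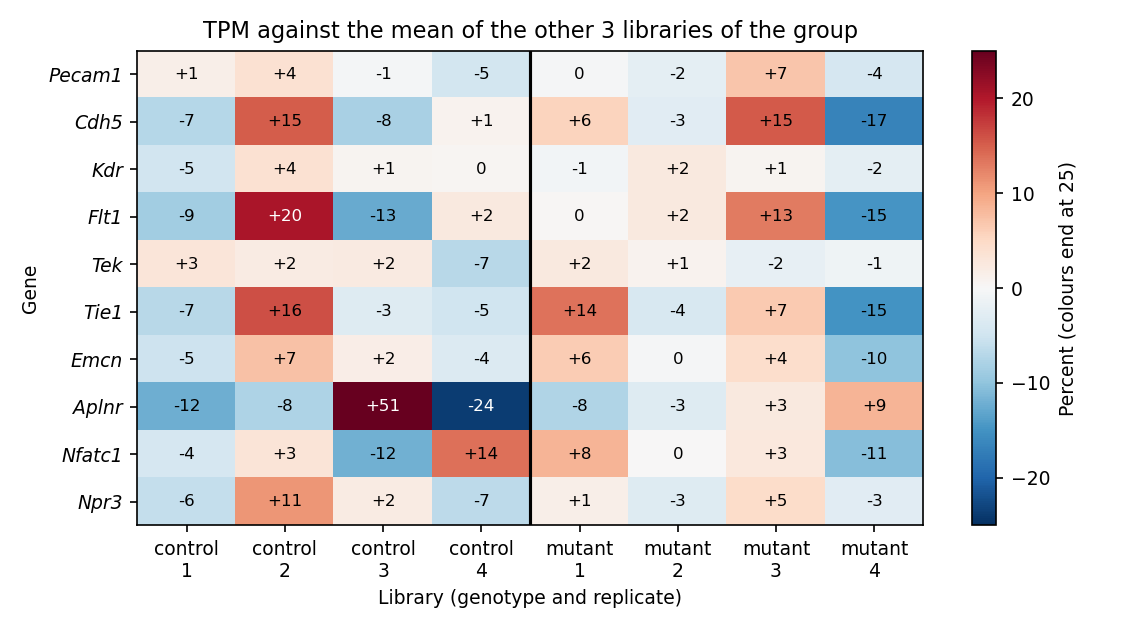
Percent by which each gene's TPM in a library differs from the mean of the other 3 libraries of its group; colours end at 25%. Control replicate 2 is high and mutant replicate 4 low for Cdh5, Flt1 and Tie1, while Kdr and Tek deviate by at most 3.75% in those 2 libraries.

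Other genes of these pathways were taken from a list of 86 ligands, co-receptors, regulators and further endothelial or endocardial genes, and 83 of them passed the filter on low values. None passed an adjusted p of 0.05, a count of 0, and 8 of the 83 had an unadjusted p below 0.05, against 6.1% of all genes. Of the 83, 33 had a positive and 50 a negative difference, and the median was -0.031, beside 51.8% negative and a median of -0.0033 for all genes tested. Mutant replicate 4 was the lowest mutant in 47 of the 83 (35.0% of all genes), and control replicate 2 the highest control in 32 (22.4% of all genes). Without those 2 libraries the tilt turned, with 45 positive and 38 negative and a median of 0.011, beside 47.7% negative for all genes. Leaving out a library that is the highest control or the lowest mutant raises a gene's difference by construction. The turn is therefore no test of the tilt, here or in the parts of the list below. The groups did not overlap in 5 of the 83 genes, or 6.02%, against 3.68% of all genes. These were Npr1, Npr2, Ets1, Robo4 and Cd93, all lower in the mutants.

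Of the 8 VEGF ligands and co-receptors, 4 were higher and 4 lower. Vegfb, which encodes a VEGFR-1 ligand, held 110 to 119 TPM in the controls and 118 to 130 TPM in the mutants (log2 fold change 0.12, limma adjusted p of 0.780). Vegfc and Vegfd, for ligands of the lymphatic receptor VEGFR-3, had log2 fold changes of -0.069 and -0.19, with limma adjusted p of 0.905 and 0.895. Among 4 angiopoietins and TIE regulators, Svep1, for a matrix protein that binds TIE1, had -0.23 (limma adjusted p of 0.811). Angpt2, an angiopoietin, had 0.18 and Ptprb, the phosphatase VE-PTP that acts on TIE2, 0.018.

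The natriuretic peptide group surrounds Npr3. Nppb, for the peptide BNP, held 330 to 417 TPM in the controls and 371 to 443 TPM in the mutants, a log2 fold change of 0.19 (limma adjusted p of 0.810). Npr1, for the guanylyl cyclase receptor of ANP and BNP, measured 8.37, 9.07, 7.52 and 8.11 TPM in the controls and 7.39, 6.78, 6.82 and 6.40 TPM in the mutants. Its groups lay apart, and Npr1 differed by -0.24 on the log2 scale (unadjusted p of 0.0092, limma adjusted p of 0.780). Npr2, for the receptor of CNP, held 10.3 to 10.8 TPM in the controls and 9.52 to 9.78 TPM in the mutants (log2 fold change -0.11, limma unadjusted p of 0.0587, limma adjusted p of 0.830). Every mutant value of Npr1 and of Npr2 thus lay below every control value, as in 2.05% of all genes. The clearance receptor gene Npr3 had a positive difference with overlapping groups, and none of these genes passed. Nppc, of the same group, was too low to be tested, at 0.369 to 0.745 TPM in the controls and 0.0702 to 0.157 TPM in the mutants.

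The calcineurin and NFAT genes, upstream of or related to Nfatc1, had small differences: the 7 tested lay between -0.055 and 0.066. Rcan1, a calcineurin inhibitor and known NFATc1 target, had -0.055 (limma adjusted p of 0.927), Ppp3cb 0.057 and Ppp3r1 0.048, both for calcineurin subunits. Of 11 other endocardial genes, 4 were higher and 7 lower, between -0.082 and 0.081. Adgrg6, for an adhesion receptor of the endocardium, held 44.9 to 51.5 TPM in the controls and 47.1 to 51.8 TPM in the mutants (log2 fold change 0.081, limma adjusted p of 0.867). Ece1, for the enzyme that activates endothelin, had 0.061, and Emilin1, for a matrix protein, -0.074.

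Of the 14 endothelial transcription factor genes, 10 were lower and 4 higher, and 8 and 6 without control replicate 2 and mutant replicate 4. Ets1 measured 54.6 to 57.6 TPM in the controls and 49.5 to 54.5 TPM in the mutants, and differed by -0.10 on the log2 scale (unadjusted p of 0.0316, limma adjusted p of 0.809). The nearest values of the groups of Ets1 were 54.6 and 54.5 TPM, almost touching. Lmo2 and Sox7 had -0.078 and -0.083, with limma adjusted p of 0.927 and 0.928. Among the arterial, venous and lymphatic genes, 9 of 10 were tested, with 5 higher and 4 lower. Efnb2, for an arterial ephrin ligand, had -0.065. Fabp4, a fatty acid binding protein of capillary endothelium, was uneven between libraries, at 2.46 and 2.40 TPM in mutant replicates 1 and 3 and 0.587 and 0.556 TPM in mutant replicates 2 and 4.

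Among the 25 endothelial surface and junction genes, 19 had a negative and 6 a positive difference (median -0.078), against 51.8% negative over all genes. Mutant replicate 4 was the lowest mutant in 13 of the 25 and control replicate 2 the highest control in 12. Without both, 15 were negative and 10 positive, with a median of -0.023. Robo4, for a receptor that stabilises vessels, measured 4.89, 3.87, 4.34 and 3.82 TPM in the controls and 3.45, 2.44, 3.45 and 2.42 TPM in the mutants. The groups did not overlap, and Robo4 differed by -0.42 on the log2 scale (unadjusted p of 0.0075, limma adjusted p of 0.758). Cd93, for a C-type lectin receptor of endothelial and myeloid cells, held 91.6 to 96.3 TPM in the controls and 82.3 to 91.1 TPM in the mutants, a log2 fold change of -0.11 (limma adjusted p of 0.783). Clec14a, of the same lectin family, had -0.27 (limma adjusted p of 0.780). Of 9 macrophage markers 7 were tested, and all 7 had a negative difference that did not pass. Cx3cr1, C1qb and Mrc1 did not overlap between groups, with log2 fold changes of -0.60, -0.86 and -0.61 (limma adjusted p of 0.573, 0.720 and 0.573). Cx3cr1 held 1.08 to 1.87 TPM in the controls and 0.387 to 0.720 TPM in the mutants. It passed the filter of 1 TPM through the controls alone, so its lack of overlap follows from the filter. C1qb held 2.54 to 5.46 TPM in the controls and 0.798 to 2.45 TPM in the mutants, and Mrc1 1.36 to 2.49 and 0.762 to 1.11 TPM. Over all genes tested, 3.68% did not overlap in either direction and 2.05% lay lower in the mutants. Cx3cr1, C1qb and Mrc1 were picked from the list after their values were seen. The summed level of the 9 markers was 65.9 to 88.0 TPM in the controls and 54.3 to 65.1 TPM in the mutants, with Adgre1 and Fcgr1 below 1 TPM in every library. Lyz2, which also marks other myeloid cells, made up most of that sum, at 55.2 to 66.0 TPM in the controls and 45.0 to 55.9 TPM in the mutants. The part of macrophages in the values of Cd93 and Robo4 was not tested.

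**Figure D5:**
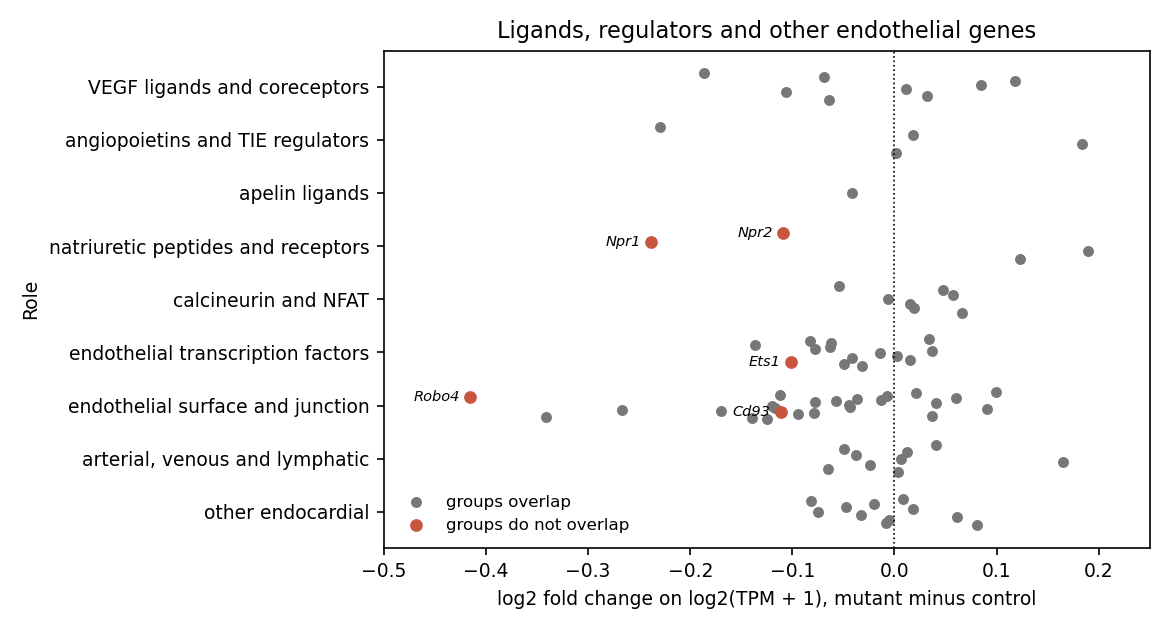
Log2 fold change of the 83 tested pathway genes by role, mutant minus control on the log2(TPM + 1) scale, with genes whose groups do not overlap in red. The named red points, Robo4, Npr1, Npr2, Ets1 and Cd93, all lie below 0, from -0.42 to -0.10.

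Erythroid, epicardial and cushion mesenchyme markers overlapped between the genotypes in summed level. Erythroid markers summed to 4694 to 8000 TPM in the controls and 4382 to 6101 TPM in the mutants, with 10 of 12 genes lower. Epicardial markers summed to 247 to 276 and 242 to 267 TPM, and cushion mesenchyme markers, cells that arise from endocardium, to 735 to 854 and 759 to 850 TPM. No gene of these lists passed the adjusted threshold, a count of 0 in each.

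The genes whose pattern over the 8 libraries was most like the pan-endothelial mean were named from 11618 other genes with a mean of at least 5 TPM. They were Irx3, Mdfi, 2900076A07Rik, Trp53i11 and Card10, with Pearson r of 0.93 to 0.95 and Spearman rho of 0.83 to 0.98. Without control replicate 2 and mutant replicate 4, the libraries farthest from the median, r ranged from 0.70 for Card10 to 0.94 for Irx3. The pan-endothelial mean used here includes Aplnr, which was highest in control replicate 3, at 4.45 TPM. With Aplnr, that library had the highest mean after control replicate 2, as it had the highest level of all 5 genes after that library. Without Aplnr, its mean lay below control replicate 4 and mutant replicates 1 to 3. Likeness to a mean without Aplnr was not examined. Most like the mean of Nfatc1 and Npr3 were Ankzf1, Rasd1, Nupl1, Sorl1 and Sufu, with r of 0.95 to 0.98 and rho of 0.90 to 0.98. Without control replicates 1 and 3, the farthest libraries here, r ranged from 0.86 for Sufu to 0.98 for Nupl1. None of these 10 is on the list of 86 pathway genes. For the 71 pathway genes at this level, the median r with the pan-endothelial mean was 0.30 and 56 were positive. Over all 11618 genes that median was 0.024 and 6037 were positive. With the endocardial mean, the median r of the 71 was 0.21 and 46 were positive, beside 0.11 and 6806 over all 11618 genes. These values describe 8 libraries that share 1 batch and 2 genotypes, and the genes were the highest of many.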

How the data were processed

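The authors deposited TPM in 1 table with a column per library. Per the submitters' processing notes, the tools include Trim Galore 0.6.7, HISAT2 2.2.1, StringTie 2.2.1 and featureCounts, on GRCm38. Which of these made the TPM, the strand setting and the treatment of reads with several positions are not given in the sources used here. TPM keeps no depth, so precision rests on the spread between libraries. Start and end of all 10 members equal those of RefSeq GRCm38.p6.

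Values were analysed as log2(TPM + 1), which understates fold changes of low genes such as Aplnr. The 15545 genes that reached 1 TPM in 4 or more of the 8 libraries were fitted together in limma 3.58.1 (R 4.3.3) with variances following mean expression, no covariate, and Benjamini-Hochberg adjustment over all of them. The fit was tested on simulated data. Scores, deviations and figures were made in Python 3.11.15 (numpy 2.4.6, pandas 2.3.3; plots in matplotlib 3.10.9). The members and lists were chosen with earlier results of these data known. Named are all members, up to 3 pathway genes per role with the smallest p, Atf4, and the 5 genes closest to each mean profile. Lyz2, Cx3cr1, C1qb and Mrc1 were named after their values were seen. Alternatives were another pseudocount, filter, scaling, variance model or library weights, a replicate block, each library left out, and, chosen after seeing the data, 2 libraries left out together.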

Additional observations from a re-analysis of the deposited data

Results flagged for a closer look

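Each of the 10 genes, the pan-endothelial and endocardial means and the difference of those means was examined in each genotype for a library far from the rest, 26 groups of 4 libraries in all. A gap this wide arises in about 5% of such groups, or 1.3 of the 26, and 1 was found. It was Tek in control replicate 4, whose 78.7 TPM lay under the 84.3, 84.5 and 84.9 TPM of its group, a gap of 0.905 of the group's range.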

How the results depend on the processing

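In every alternative run, including the pair of libraries left out after the data were seen, 0 of the 10 members and 0 of the pathway genes passed the adjusted threshold. Tek, Nfatc1, Npr3 and Aplnr kept their sign throughout, and Aplnr was not tested with the filter at 5 TPM. The replicate numbers did not pair the libraries: deviations of same-numbered libraries correlated at -0.082 to 0.035 over 4 pairs, and 1 of 4 controls correlated best with its own number. With the replicate block the count over all genes was 0 against 6, as it was with no filter and with no variance trend, at 0 each. Atf4 did not pass in 13 of 18 alternatives. The count over all genes ranged from 0 to 3 with 1 library left out and was 0 without both control replicate 2 and mutant replicate 4. Pecam1 turned to -0.0051 with quantile normalization. With 1 library left out, Pecam1 ranged from -0.014 to 0.025, Cdh5 from -0.073 to 0.044, Kdr from -0.026 to 0.0046, Flt1 from -0.020 to 0.090, Tie1 from -0.13 to -0.022 and Emcn from -0.041 to 0.019. Without control replicate 2 and mutant replicate 4 together, Pecam1 was 0.039, Flt1 0.14, Cdh5 0.095, Kdr 0.013, Tie1 0.032 and Emcn 0.044, and the last 4 of these are negative with all libraries. In each of these genes the libraries left out were the highest control and the lowest mutant, so the rise is built in. The endocardial minus pan-endothelial difference of 0.17 was 0.11 without Aplnr, and so with the filter at 5 TPM, and 0.12 as log2 of summed TPM. The read depth is unknown, which limits the reading of Aplnr and other low genes.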
